A study of Mus musculus with 6 samples.

Results

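The endoplasmic reticulum (ER) chaperones and the unfolded protein response were followed as 39 genes in mouse regulatory T (Treg) cells, which hold immune responses in check. The members were chosen by gene symbol, and each was read from the probe set that the array annotation pairs with it, taking the brightest over all arrays where there were several. Of the 39 genes, 37 had a named probe set among the 19505 symbols on the array, while Manf and Pdia4 had none and were not analysed here. Peripheral lymph nodes and spleens of mice aged 8 to 12 weeks gave the CD4+YFP+ cells, which were isolated by flow sorting. 3 control arrays held cells of Foxp3 Cre/wt mice, and 3 arrays held Ube2m&Ube2f-deficient cells of Foxp3 Cre/wt mice with floxed alleles of both genes (Ube2m fl/fl and Ube2f fl/fl). Every sample pooled 2 to 3 mice. Per the methods of the study, all the mice were females in which Foxp3-YFP-Cre lies on 1 X chromosome, so that the sorted cells of both groups carry Cre and normal Treg cells remain in the same animal. Ube2m and Ube2f encode the E2 enzymes that hand the ubiquitin-like protein NEDD8 to cullins and other targets, and the study compared the groups to learn how loss of both alters the Treg cell transcriptome.

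Proteins bound for the cell surface or for secretion fold in the ER, where chaperones hold them, disulfide isomerases pair their cysteines and misfolded chains are sent back to the cytosol for the proteasome. When unfolded protein builds up, the membrane sensors IRE1, PERK and ATF6 start the unfolded protein response. IRE1 splices the mRNA of Xbp1, PERK phosphorylates eIF2 and thereby favours translation of ATF4, and ATF6 is cut in the Golgi to release a transcription factor. Plasma cells are the lymphocytes best known for a large ER, while T cells use the same genes at a smaller scale for their receptors and cytokines. Splicing of Xbp1, phosphorylation and cleavage are not read by these arrays, which give 1 signal for each gene.

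The arrays are 1-colour Affymetrix Clariom S arrays, and the values are log2 signals whose median on an array was 4.89 to 5.11. On the first principal component, with 39.9% of the variance, the control arrays lay at -46.8 to -27.7 and the deficient arrays at 26.3 to 44.2. On the second, which held 29.5% of the variance, control 1 (28.2) and deficient 2 (52.1) lay at the same end, with the other arrays between -32.3 and -0.248. Of the targeted genes, Ube2m was not analysed here, and Ube2f read 11.91, 11.82 and 11.90 in control arrays and 9.70, 9.72 and 9.82 in deficient arrays, although no source used here says whether its probes lie in the deleted part. The sample titles name muscle, but the mean log2 signal was 3.60 to 3.83 for 10 skeletal muscle genes and 14.74 to 15.14 for 11 genes of T cells. A reference for silent genes, the 95th percentile of 1091 olfactory receptor genes, stood at 5.39. Differences are deficient minus control on the log2 scale throughout, and a gene was called when its adjusted p in limma, a linear model with moderated variance fitted over all 22206 probe sets, was under 0.05.

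Much of the ER folding machinery shares a control element in its promoters, the ER stress response element (ERSE), which is known to bind ATF6 together with the factor NF-Y. It reads CCAAT, 9 free bases and CCACG. In the RefSeq promoters of GRCm38.p6, from 250 bases before to 50 bases after each annotated start, the element stood on either strand in 0.119% of 32851 promoters and in 37 of 27025 genes. It stood in the promoters of 10 of the 35 members with a promoter in that table, namely Hspa5, Hsp90b1, Calr, Canx, Dnajc3, Creld2, Pdia6, Ero1b, Syvn1 and Derl3. Atf6, Manf, Hyou1 and Derl1 had no promoter there. The related element ERSE-II (ATTGG, 1 free base and CCACG) was found in 0.0365% of promoters and in 2 members, Dnajb11 and Herpud1, neither of which carries an ERSE. The ATF4 element TGATGNAAT was in 0.965% of promoters and in 0 of the 35 members, which says only that these letters are not in this window. A match is a description and does not show binding.

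The first 4 stretches below belong to ERSE genes whose control and deficient arrays did not overlap, and the other 3 to ERSE genes whose arrays did, so that the same element can be set beside both outcomes. The arrays of Ero1b (log2 difference -0.38), Creld2 (-0.36) and Derl3 (-0.13) overlapped too, and their stretches are not printed. Each runs 5′ to 3′ on the strand of the gene with 8 bases on either side, and capitals mark the outer bases of each ERSE, which read CGTGG and ATTGG where the element lies on the opposite strand. The positions are those of GRCm38.p6.
Hspa5, chr2:34772017-34772051, plus strand, 73 to 39 bases before the start: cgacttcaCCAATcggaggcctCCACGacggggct
Hsp90b1, chr10:86705525-86705664, minus strand, 220 to 81 bases before the start, with 2 elements: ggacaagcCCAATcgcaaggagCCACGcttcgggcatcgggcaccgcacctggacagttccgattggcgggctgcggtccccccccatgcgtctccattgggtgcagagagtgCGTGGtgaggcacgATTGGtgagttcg
Calr, chr8:84847067-84847101, minus strand, 170 to 136 bases before the start: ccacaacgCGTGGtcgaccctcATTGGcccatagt
Pdia6, chr12:17266483-17266517, plus strand, 106 to 72 bases before the start: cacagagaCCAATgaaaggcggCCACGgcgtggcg
Canx, chr11:50325792-50325826, minus strand, 153 to 119 bases before the start: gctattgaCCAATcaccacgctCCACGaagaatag
Dnajc3, chr14:118937819-118937853, plus strand, 113 to 79 bases before the start: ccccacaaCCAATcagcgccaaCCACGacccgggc
Syvn1, chr19:6046524-6046558, plus strand, 52 to 18 bases before the start: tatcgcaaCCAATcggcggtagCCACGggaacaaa

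**Figure D1:**
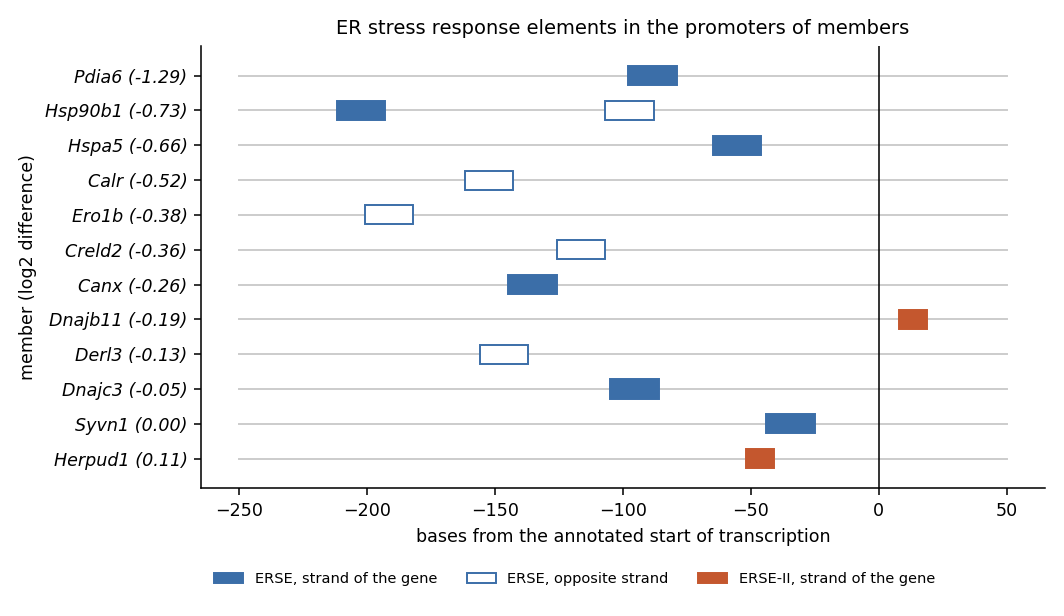
Position of each ERSE and ERSE-II in the promoters of 12 members, in bases from the annotated start of transcription, with members ordered by their log2 difference (in brackets). Pdia6, Hsp90b1, Hspa5 and Calr, the 4 ERSE genes without overlap between groups, carry the element 47 to 212 bases before the start. The other ERSE genes carry it 26 to 201 bases before the start, so the position does not set the 4 apart.

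Of the 37 measured members, Atf6 and Pdia6 fell in deficient Treg cells, 0 rose and 35 did not pass the test, which does not show that those 35 were unchanged. That is 5.41% called lower, against 2.27% of all 22206 probe sets (percentage called lower) and 4.42% of the 10477 probe sets with a group mean above the silent-gene reference, so the share of calls among the members is near the background. Higher calls made up 0.581% and 1.18% of these probe sets, against 0 of the members. The median difference of the members was -0.12, against 0.02 over all probe sets and -0.03 over those above the reference. 26 of the 37 members (70.3%) had a difference below 0, against 47.0% and 53.1%. The 3 control and 3 deficient values did not overlap for 8 members, all of them lower in deficient cells (21.6%, against 9.97% and 16.4%), and for 0 members in the higher direction (against 8.22% and 10.2%). At an unadjusted p under 0.05, 7 members were lower and 0 higher (18.9% lower, against 7.62% and 13.6%, with 5.24% and 7.66% higher). By the threshold that the study used (a change of over 1.5-fold and p under 0.05 before adjustment) there were 5 members lower and 0 higher, against 5.82% lower and 3.24% higher over all probe sets and 10.8% and 5.33% above the reference.

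**Figure D2:**
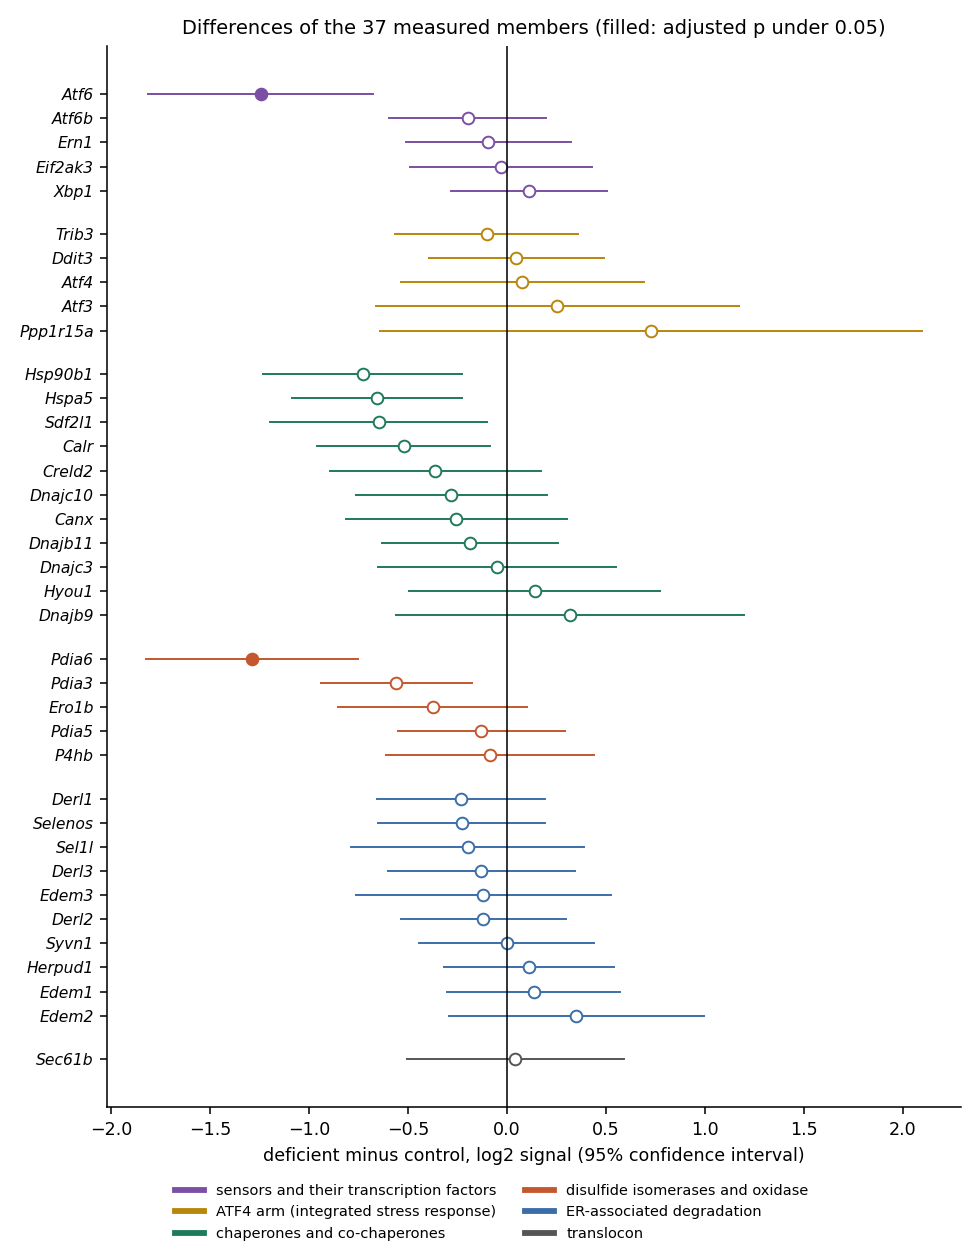
Log2 difference (deficient minus control) of the 37 measured members with 95% confidence intervals from limma, grouped by role, 3 arrays per group. Filled points passed the adjusted threshold, and these are Atf6 (-1.25) and Pdia6 (-1.29).

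Among the sensors, Atf6 was lower in deficient Treg cells while the genes of the other arms were not called. Atf6, which encodes the sensor that becomes a transcription factor, had log2 signals of 9.61, 9.31 and 9.43 in control arrays and 7.67, 8.53 and 8.41 in deficient arrays. All the deficient arrays lay below all the control arrays, and deficient 1 was the lowest. Atf6 fell 2.37-fold, a difference of -1.25 (standard error 0.250, 95% confidence interval -1.81 to -0.68, adjusted p = 0.0352, limma). The exact two-sided permutation test of these 6 values gave p = 0.1, which is as low as a design of 3 against 3 can go. Without deficient 1 the difference was -0.98 (adjusted p = 0.0814), and the adjusted p also missed the threshold without control 1 (0.128), control 2 (0.101), control 3 (0.120) or deficient 3 (0.0664), while it held without deficient 2 (0.0339).

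Atf6b, the paralogue of Atf6, read 10.51, 10.59 and 10.73 in control arrays and 10.50, 10.48 and 10.25 in deficient arrays. The groups stood apart by 0.01 log2 units at the nearest pair, and the difference of -0.20 (95% confidence interval -0.60 to 0.20, adjusted p = 0.748) did not pass the test. Xbp1, the factor downstream of IRE1, read 12.27, 12.14 and 12.32 in control arrays and 12.40, 12.46 and 12.20 in deficient arrays. Its groups overlapped, and the interval of its difference ran from -0.28 to 0.50. For Ern1, which encodes IRE1, the difference was -0.10 (-0.51 to 0.32), and for Eif2ak3, which encodes PERK, it was -0.03 (-0.49 to 0.43). The signs of both changed when single arrays were left out. The difference between the response of Atf6 and that of the other sensors was not tested.

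The genes of the ATF4 arm, which respond to phosphorylation of eIF2, gave 0 calls among 5 members. Their median difference of 0.08 turned to -0.03 without deficient 2, was 0.33 without control 2, 0.23 without deficient 3, 0.04 without control 1 and 0.015 without deficient 1, and was 0.15 after quantile normalization. Atf4 itself read 12.50, 13.48 and 12.96 in control arrays and 13.18, 13.24 and 12.75 in deficient arrays, so the lowest and the highest value were both controls. Ddit3, the pro-apoptotic factor CHOP, differed by 0.05 (95% confidence interval -0.40 to 0.49), and its second probe set by -0.14. Trib3, a pseudokinase induced by ATF4 and CHOP, differed by -0.10 (-0.57 to 0.36).

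Ppp1r15a, also called GADD34, which reverses the phosphorylation of eIF2, had the widest spread of the members. It read 5.13, 5.90 and 5.20 in control arrays and 5.85, 7.69 and 4.87 in deficient arrays. A single array, deficient 2, stood above the rest, and the difference of 0.73 became -0.05 without it. Atf3, a stress-induced repressor, read 4.90, 5.52 and 5.0 in control arrays and 6.0, 5.81 and 4.37 in deficient arrays, with deficient 3 below every control. The control mean of Atf3 (5.14) was under the silent-gene reference of 5.39, and that of Ppp1r15a (5.41) was just above it.

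**Figure D3:**
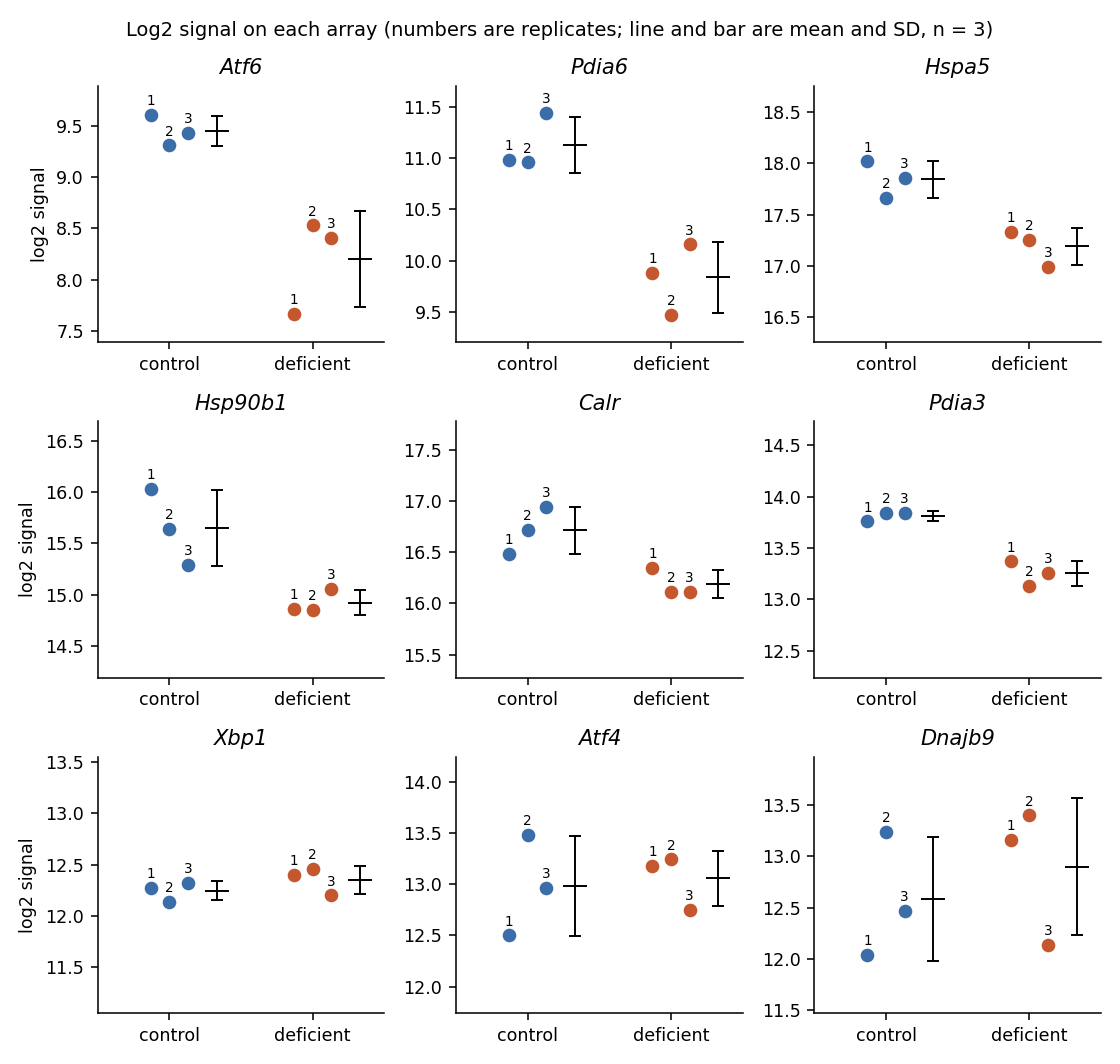
Log2 signal of 9 members on each of the 6 arrays, with the replicate number above each point and the mean and SD (n = 3) beside each group. Every panel spans 2.5 log2 units. The control and deficient points of Atf6, Pdia6, Hspa5, Hsp90b1, Calr and Pdia3 do not overlap, and those of Xbp1, Atf4 and Dnajb9 do.

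Of the 11 measured chaperones and co-chaperones, 0 passed the adjusted threshold. Hspa5, Hsp90b1, Calr and Sdf2l1 were lower on every deficient array than on any control array, and the groups of the other 7 overlapped. Hspa5, known as BiP, the HSP70 chaperone of the ER that also keeps the sensors silent, read 18.02, 17.66 and 17.86 in control arrays and 17.33, 17.25 and 16.99 in deficient arrays. The lowest control was 0.33 above the highest deficient array. The difference was -0.66 with a standard error of 0.189 (95% confidence interval -1.09 to -0.23, 1.58-fold, adjusted p = 0.140), and among the alternatives of the fit it passed the adjusted threshold under an intensity trend with robust variance (0.0408).

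Hsp90b1, the HSP90 chaperone GRP94 that folds integrins and Toll-like receptors, read 16.03, 15.64 and 15.29 in control arrays and 14.86, 14.85 and 15.06 in deficient arrays. The groups did not overlap, with control 1 the highest. The difference was -0.73 (standard error 0.221, 95% confidence interval -1.23 to -0.23, adjusted p = 0.163) and -0.54 without control 1.

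Calr, the lectin chaperone calreticulin, read 16.48, 16.72 and 16.94 in control arrays and 16.35, 16.11 and 16.11 in deficient arrays, a difference of -0.52 (95% confidence interval -0.96 to -0.09, adjusted p = 0.270). Its membrane-bound relative Canx, calnexin, read 12.25, 12.59 and 12.61 against 12.48, 11.73 and 12.47, and here 1 deficient array was low and the groups overlapped. The Canx difference was -0.26, and -0.0083 without deficient 2. Sdf2l1, a partner of BiP and its co-chaperones, read 6.52, 7.20 and 7.07 in control arrays and 6.44, 5.95 and 6.45 in deficient arrays. Its groups were apart by 0.07, and the difference was -0.65 (-1.20 to -0.10, adjusted p = 0.274).

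The co-chaperones of BiP behaved less evenly. Dnajb9, or ERdj4, which helps BiP to silence IRE1, read 12.04, 13.24 and 12.47 in control arrays and 13.16, 13.40 and 12.14 in deficient arrays. Its SD was 0.608 in control and 0.669 in deficient arrays, and its difference of 0.32 (95% confidence interval -0.56 to 1.20) was smaller than that spread. Dnajb11 (-0.19), Dnajc3 (-0.05), the reductase Dnajc10 (-0.28) and the ER-lumenal protein Creld2 (-0.36) had adjusted p-values from 0.622 to 0.974. Hyou1, a large HSP70 relative that exchanges the nucleotide of BiP, differed by 0.14 (-0.49 to 0.77).

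As a group, 9 of the 11 measured chaperones and co-chaperones had a difference below 0 (81.8%, against 47.0% of all probe sets and 53.1% of those above the reference), 4 did not overlap in the lower direction (36.4%, against 9.97% and 16.4%), and 0 were called. Their median difference was -0.28, and -0.12 without deficient 2. In bulk samples of sorted cells, fewer cells of one kind and less RNA per cell cannot be told apart.

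The disulfide isomerases held the other call. Pdia6, an isomerase that also acts on the disulfides of IRE1 and PERK, read 10.98, 10.96 and 11.44 in control arrays and 9.88, 9.47 and 10.16 in deficient arrays. The gap between the groups was 0.80 log2 units. Pdia6 fell 2.45-fold, a difference of -1.29 (standard error 0.235, 95% confidence interval -1.82 to -0.76, adjusted p = 0.0232 in limma, exact two-sided permutation p = 0.1). The call was lost without control 1 (0.0587), control 2 (0.0703), control 3 (0.0962), deficient 1 (0.0900) or deficient 2 (0.0557) and held without deficient 3 (0.0291), with a difference between -1.45 and -1.11 in all of these.

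Pdia3, or ERp57, which works with calnexin and calreticulin on glycoproteins and in the loading of MHC class I, read 13.76, 13.84 and 13.84 in control arrays and 13.37, 13.13 and 13.26 in deficient arrays. Its controls agreed within an SD of 0.0462 and its deficient arrays all lay lower, by -0.56 (standard error 0.169, 95% confidence interval -0.94 to -0.18, adjusted p = 0.160). P4hb, the founding protein disulfide isomerase, read 10.86, 10.60 and 10.07 in control arrays and 10.58, 10.33 and 10.36 in deficient arrays, which overlap. Its difference was -0.09 (-0.61 to 0.44). Ero1b, an oxidase that recharges the isomerases, differed by -0.38 (-0.85 to 0.10), and the group means of Pdia5 (3.09 and 2.96) did not reach the silent-gene reference. All 5 measured members of this group, Pdia5 included, had a difference below 0, against 47.0% of all probe sets and 53.1% of those above the reference. Their median of -0.38 was -0.27 after quantile normalization and -0.495 to -0.30 without 1 array.

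The genes of ER-associated degradation, which pull misfolded proteins out of the ER for the proteasome, gave 0 calls among 10 members and 0 members without overlap. Their median of -0.12 was -0.0050 without control 1, -0.03 without control 3 or deficient 3 and -0.03 after quantile normalization. Herpud1, a scaffold of the ligase complex, read 12.85, 13.00 and 13.11 in control arrays and 13.34, 12.91 and 13.04 in deficient arrays. Edem1, a lectin that picks out misfolded glycoproteins, read 13.32, 13.47 and 13.13 in control arrays and 13.65, 13.23 and 13.44 in deficient arrays. Both overlapped, with intervals from -0.32 to 0.54 and from -0.30 to 0.57.

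Edem2, a mannosidase of the same family, had the largest difference in size of these genes at 0.35 (-0.30 to 0.995), with values of 9.03, 10.15 and 9.74 against 10.22, 9.86 and 9.89. Its control 1 was the lowest array, and without it the difference was 0.045. Derl1, a channel protein of the retrotranslocation complex, read 11.03, 11.31 and 11.18 in control arrays and 10.79, 10.86 and 11.17 in deficient arrays, a difference of -0.23 (-0.66 to 0.19), and its groups overlapped through deficient 3. Syvn1, the ubiquitin ligase HRD1, differed by -0.0033 (-0.44 to 0.44) and its partner Sel1l by -0.20 (-0.79 to 0.39). Derl2, Edem3 and Selenos lay between -0.23 and -0.12, and Derl3, with means of 3.66 and 3.53, did not reach the silent-gene reference. Sec61b, a subunit of the translocon through which proteins enter the ER, read 6.44, 6.70 and 7.25 in control arrays and 6.63, 6.84 and 7.04 in deficient arrays, which overlap (0.04, -0.51 to 0.59).

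**Figure D4:**
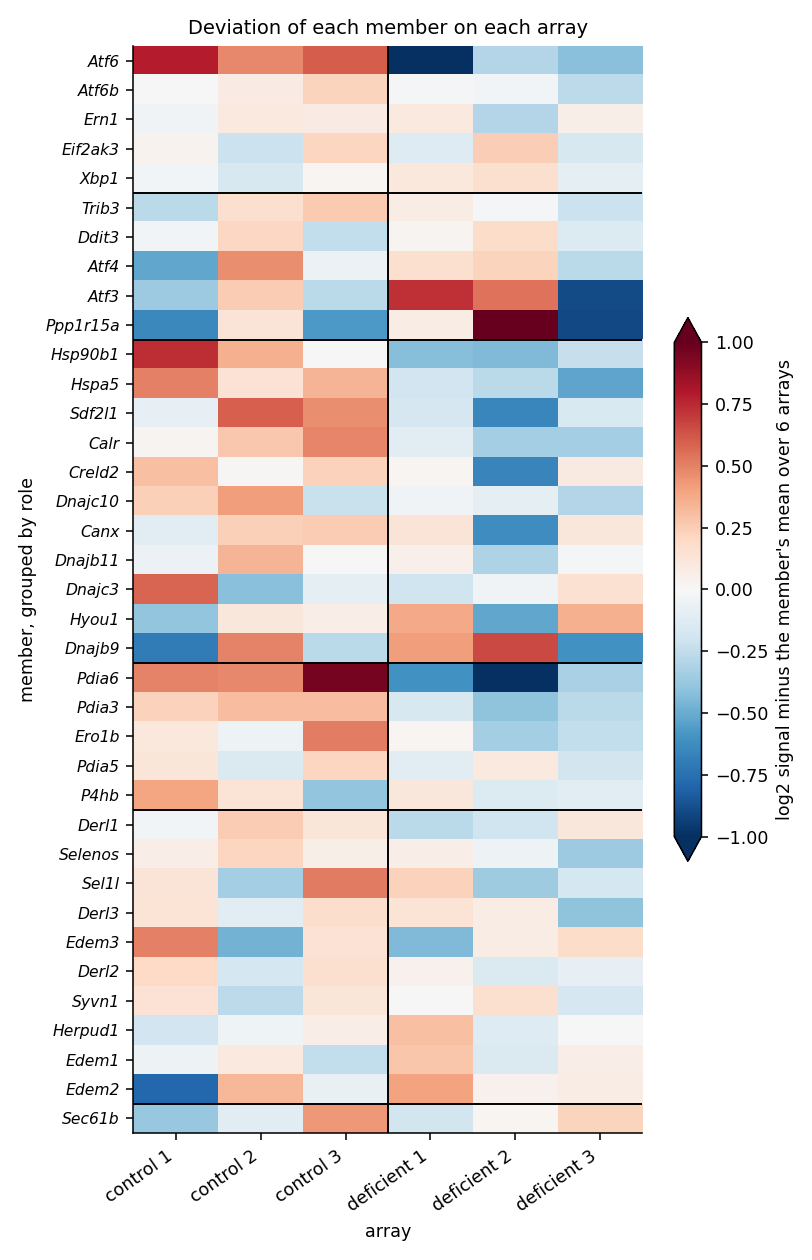
Deviation of each member on each array from its own mean over the 6 arrays, in log2 units, with horizontal lines between role groups and a vertical line between control and deficient arrays. Atf6, Pdia6, Hspa5, Hsp90b1, Calr and Pdia3 are above their mean on the control side and below it on the deficient side, whereas Atf4, Atf3, Ppp1r15a and Dnajb9 vary within both groups.

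Measured by the median deviation of the members from their own means, the isomerase group stood at 0.23, 0.13 and 0.31 on the control arrays and at -0.11, -0.34 and -0.25 on the deficient arrays. The ATF4 arm stood at -0.37, 0.21 and -0.25 on the control arrays and at 0.08, 0.22 and -0.27 on the deficient arrays. The isomerase values separate the groups, and those of the ATF4 arm do not. The chaperones separate them too (0.03, 0.27 and 0.07 on control arrays, -0.035, -0.34 and -0.155 on deficient arrays). So do the sensors, narrowly (0.0, 0.08 and 0.22 against -0.01, -0.03 and -0.16), but the median difference of the sensors turned from -0.10 to 0.03 after quantile normalization. The values of ER-associated degradation, of Sec61b and of all 37 members together overlap. For all members, control 1 stood at 0.0283 and deficient 1 at 0.03. Over all probe sets the same measure stayed between -0.02 and 0.01.

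Set beside the promoters described above, the 10 members with an ERSE all had a difference below 0 (against 47.0% of all probe sets and 53.1% of those above the reference), with a median of -0.37. Among these 10, Derl3 did not reach the silent-gene reference. Of the 10, 1 was called (against 2.27% and 4.42% lower) and 4 did not overlap (40%, against 9.97% and 16.4%). The 24 measured members with a promoter and no ERSE had a median of -0.09, with 14 below 0 (58.3%), 0 calls and 3 without overlap (12.5%). The 18 measured genes outside the members that carry an ERSE had a median of 0.10, with 6 below 0 (33.3%), 0 calls and 1 without overlap (5.56%). For 10 of these 18 genes neither group mean was above the silent-gene reference. Syvn1 and Dnajc3, which also carry the element, differed by only -0.0033 and -0.05. These groups were formed after the values had been seen and were not tested against each other.

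Of 165 other genes of the pathway with a named probe set, out of 176 listed, 0 fell and 1 rose at the adjusted threshold, with a median of -0.08 and 18 lower and 7 higher at an unadjusted p under 0.05. The 18 lower genes are 10.9%, between the 7.62% of all probe sets and the 13.6% of those above the reference. The 7 higher genes are 4.24%, against 5.24% and 7.66%. The gene that rose was P4ha1, the catalytic subunit of collagen prolyl 4-hydroxylase, which uses P4hb as its partner. It read 11.21, 11.10 and 11.10 in control arrays and 11.89, 12.32 and 11.92 in deficient arrays, a difference of 0.91 with a standard error of 0.188 (adjusted p = 0.0409). The groups did not overlap, but the call was lost without any one of the 6 arrays (adjusted p 0.0793 to 0.146) and after median centring (0.0746).

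**Figure D5:**
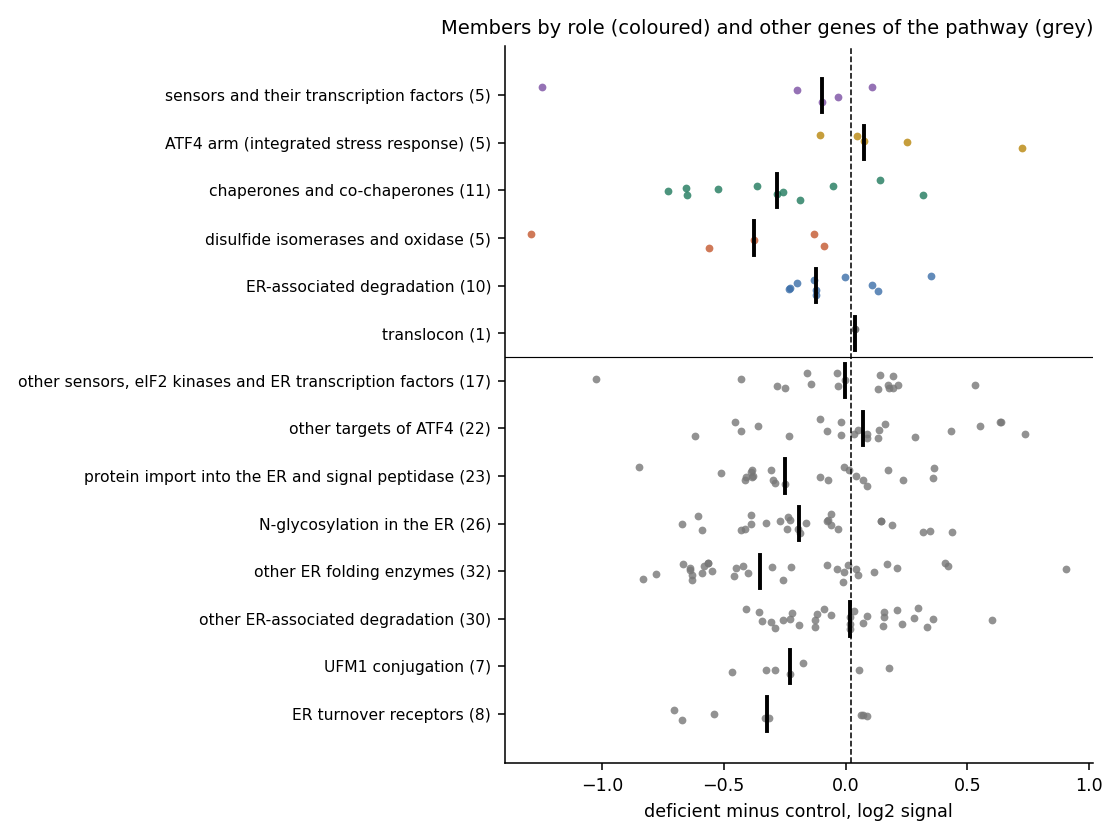
Log2 differences (deficient minus control) of the members by role and of 8 lists of other pathway genes, 1 point per gene, with the number of genes in brackets. Black bars are list medians and the dashed line is the median of all probe sets (0.02). The list of other ER folding enzymes has a median of -0.35 and that of other targets of ATF4 a median of 0.07.

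Among 32 other ER folding enzymes, 10 were lower (31.2%) and 2 higher (6.25%) at an unadjusted p under 0.05. Over all probe sets these shares were 7.62% and 5.24%, and above the reference 13.6% and 7.66%. In the lower direction 10 did not overlap (31.2%, against 9.97% of all probe sets and 16.4% of those above the reference), and in the higher direction 2 (6.25%, against 8.22% and 10.2%). For 10 genes of the list neither group mean was above the silent-gene reference. Kdelr2, a receptor that returns escaped chaperones from the Golgi, read 10.15, 10.37 and 10.39 in control arrays and 9.58, 9.63 and 9.21 in deficient arrays (-0.83, adjusted p = 0.0634). Kdelr2 and the genes of the next sentence were picked for their values. The thioredoxin-like proteins Tmx2 (-0.59, adjusted p = 0.138), Erp44 (-0.57, adjusted p = 0.211) and Txndc5 (-0.58, adjusted p = 0.270), the peroxiredoxin Prdx4 (-0.63, adjusted p = 0.237) and the oxidase Ero1a (-0.64, adjusted p = 0.306) had no overlap either.

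Of 23 genes of protein import and signal peptidase, 0 were called and 5 did not overlap, all lower (21.7%, near the 16.4% of probe sets above the reference), and the signal peptidase subunit Sec11c had the lowest p (-0.85, adjusted p = 0.0746). In the list of 26 genes of N-glycosylation, Rpn1, a subunit of oligosaccharyltransferase, had the lowest p (-0.61, adjusted p = 0.194). Among 17 other sensors, eIF2 kinases and ER transcription factors it was Creb3l2, an ATF6-like factor anchored in the ER (-1.03, adjusted p = 0.0816, and past the threshold without control 3). In the list of 8 ER turnover receptors, 0 were called and 4 did not overlap, all lower (50%, against 9.97% of all probe sets and 16.4% of those above the reference), with the lowest p for Ccpg1 (-0.70, adjusted p = 0.150), and in that of 7 genes of UFM1 conjugation Ufl1 had the lowest p (-0.47, adjusted p = 0.457).

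Among 22 other targets of ATF4, 0 were called, 9 had a difference below 0 and the median was 0.07. 5 did not overlap in the higher direction (22.7%, against 8.22% of all probe sets and 10.2% of those above the reference) and 0 in the lower. Slc7a5, a transporter of large amino acids, read 8.88, 9.70 and 9.76 in control arrays and 10.05, 10.55 and 9.95 in deficient arrays (0.74, adjusted p = 0.290). Shmt2, a mitochondrial enzyme of serine metabolism, read 8.88, 8.86 and 9.22 against 9.44, 9.79 and 9.63 (0.63, adjusted p = 0.163). The other 3, Vldlr, Nupr1 and Atf5, were under the silent-gene reference in both groups, and Asns, which makes asparagine and is a well known target of ATF4, had a difference of -0.62 (adjusted p = 0.266). Of 30 other genes of ER-associated degradation, 0 were called and the median was 0.02. The lowest p there belonged to the ubiquitin ligase Trim13 (0.60, adjusted p = 0.244), also under the reference in both groups.

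Plasma cells are rich in ER chaperones, so their markers were read beside the members. Over 10 measured markers the mean log2 signal was 5.39 to 5.55 in control arrays and 5.19 to 5.88 in deficient arrays, and 6 of the 10 stood at or under the silent-gene reference, the defining markers Sdc1, Mzb1 and Tnfrsf17 among them. Jchain, Mzb1 (0.69), Tnfrsf17 (0.41) and Tnfrsf13b (0.28) did not overlap in the higher direction. These 4 made up 40% of the markers, against 8.22% of all probe sets and 10.2% of those above the reference. In the lower direction 2 did not overlap, Prdm1 and Irf4 (20%, against 9.97% and 16.4%). Jchain, which joins secreted antibody chains, read 7.69, 5.31 and 5.26 in control arrays and 10.10, 11.94 and 8.01 in deficient arrays. It was highest on deficient 2 and, among controls, on control 1, and its difference of 3.93 did not pass (adjusted p = 0.0773). Prdm1 (-2.90, adjusted p = 0.000264) and Irf4 (-1.47, adjusted p = 0.0291), which effector Treg cells use as well, fell. The part of these genes in the chaperone differences was not tested. B cell (3.91 to 4.26) and myeloid (3.97 to 4.70) markers had mean signals under the silent-gene reference on all 6 arrays, while all 9 measured myeloid markers had a difference above 0. The mean over 6 markers of CD8 T and NK cells, 3 of which had both group means at or under the reference, was 4.89 to 5.81 in control and 5.28 to 6.48 in deficient arrays. All 6 had a difference above 0. Among the 6, Klrk1, an activating receptor of NK and CD8 T cells, read 4.98, 3.74 and 4.52 in control arrays and 5.60, 5.92 and 5.21 in deficient arrays, without overlap (1.16, adjusted p = 0.126). The control mean of Klrk1 (4.41) was under the reference and its deficient mean (5.58) just above it. The part of these cells in the differences of the members was not tested. Of 7 Treg cell markers 3 fell, Capg (-2.10), Ctla4 (-1.49) and Ikzf2 (-0.95), and Foxp3 was not analysed here. These calls made up 42.9%, against 2.27% of all probe sets and 4.42% of those above the reference. In the lower direction 5 of the 7 did not overlap, and in the higher direction 1, Il2ra. Il2ra read 10.61, 10.63 and 10.62 in control arrays and 11.30, 11.06 and 11.29 in deficient arrays (0.60, adjusted p = 0.135). The brightest marker of each list did not pass the test, with differences of -0.36 for Cd3e (T cells), -0.51 for Il2rb (Treg cells), 0.28 for Tnfrsf13b (plasma cells), -0.32 for Cd79b (B cells), 0.90 for Lyz2 (myeloid cells), 0.56 for H2-Aa (dendritic cells), 0.55 for Cd8b1 (CD8 T and NK cells), 0.43 for Epor (erythroid cells) and -0.19 for Ckm (skeletal muscle).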

How the data were processed

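RNA of sorted Treg cells was amplified with a pico kit and hybridised to Clariom S arrays, 1 array per pool. The authors deposited log2 signals with 2 decimals, made per the labels with Affymetrix Expression Console 1.4. The sources used here do not give the summarisation, the background correction or the log base, which was taken as 2 from the range of 2.06 to 19.9. Identical values between 2 arrays made up 0.847% to 1.09% of probe sets, so each array was counted as a separate sample, and p-values measure the spread between pools.

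Of 22206 probe sets, 19572 had 1 gene symbol and 2634 were unnamed here. Groups were compared with limma 3.58.1 in R 4.3.3 (lmFit, eBayes, no covariate and no filter), with Benjamini-Hochberg adjustment over all probe sets, 4.78 prior degrees of freedom and a prior SD of 0.267. The members, gene lists and tests were chosen with earlier results of these data known. Lists are described by counts and medians beside those of all probe sets. Members were named in full where called and, in each role group, for the highest mean level and the 2 largest differences. Other pathway lists were named by their calls or, with 0 calls, their lowest p, and cell type lists by their calls and brightest marker. Other genes were picked for their role or values. Promoters came from RefSeq (GRCm38.p6), with 35 of 39 members matched by symbol. The planned reading of C-terminal ER retention signals was not done because no protein sequences were used here. In simulated arrays (22206 probe sets, 200 changed, spreads shuffled between probe sets) the fit recovered most changes of a log2 size of 2 but missed those of a size of 1. The real arrays gave 503 lower and 129 higher calls, and a difference under 1 could pass (P4ha1, 0.91). The simulated rates therefore do not carry over to these data. With 6 arrays, precision is limited by their number.

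The alternatives were 2 other scalings of the arrays (quantile, and centring on the median), a filter on the 40% of probe sets with the lowest mean, eBayes with trend and robust options, the methods' t-test, a block for the replicate number, each array left out in turn, averaged probe sets per symbol, and the threshold of the study. The p-values of the methods' t-test were adjusted like those of limma, a step that the study does not describe. Leaving out control 1 and deficient 2 together was added after the data were seen.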

Additional observations from a re-analysis of the deposited data

How the results depend on the processing

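With 3 arrays per group, calls near the threshold depended on single arrays, and fewer arrays also give fewer degrees of freedom. Against 2 members called lower, there were 0 with the methods' t-test, 1 with the replicate block (Pdia6, adjusted p = 0.0244, while Atf6 rose to 0.0839), 0 without control 1 and deficient 2 together, 0 to 1 without 1 array, and 5 under the unadjusted rule of the study (Atf6, Pdia6, Hspa5, Hsp90b1 and Sdf2l1). By role, the sensors had 1 call, with 0 by the methods' t-test, the replicate block and without control 1 and deficient 2 together, and 0 to 1 without 1 array. The isomerases had 1 call, with 0 by the methods' t-test and without those arrays together, and 0 to 1 without 1 array. The chaperones had 0, with 1 under an intensity trend and robust variance (Hspa5) and 3 at the unadjusted rule. Members called higher stayed at 0 in every alternative. Other pathway genes had 0 lower, with 1 under the intensity trend (Sec11c), 0 to 1 without 1 array and 14 at the unadjusted rule, and 1 higher, with 0 after median centring, the methods' t-test, the replicate block, without those arrays together and without any 1 array, and 5 at the unadjusted rule. Their median of -0.08 was -0.13 without the dimmest probe sets, -0.12 without those arrays together and -0.13 to -0.10 without 1 array. The member median of -0.12 was -0.17 to -0.08 without 1 array. The differences of Atf6 (-1.41 to -0.98 without 1 array) and Pdia6 (-1.45 to -1.11) kept their sign in all 14 alternatives run for each. The cause of lost calls was not tested.

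Same-numbered control and deficient arrays deviated from their group means with correlations of -0.06, -0.24 and 0.29. Pairs with different numbers ran from -0.43 to 0.44. A pairing by number is thus not shown, but deviations from means of 3 arrays cannot exclude one. With the replicate block, calls over all probe sets went from 503 lower and 129 higher to 367 and 70. The methods' t-test with Benjamini-Hochberg adjustment, which is not the unadjusted rule of the study, called 5 lower and 1 higher. Without 1 array there were 269 to 431 lower and 46 to 81 higher in limma.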
